A study of Homo sapiens with 44 samples.

Results

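Kelly is an established human neuroblastoma cell line that carries an amplified MYCN gene. The results below come from the 4 input libraries of subcutaneous Kelly tumours in nude mice, of 44 libraries in the series. They were chosen by their labels: Kelly xenograft, 14 days, input RNA, either DMSO or STM, with 2 tumours in each group. Mice of the STM group received 50 mg/kg STM2457 into the peritoneum each day for 14 days, and the other mice received the vehicle, which the labels call DMSO and which is called so here. STM2457 is a small molecule that inhibits METTL3. Both groups share the same cells, labelled wild type, and the same immunodeficient hosts, which lack T cells and keep other immune cells. Male and female mice were used, the labels do not say which tumour came from which sex, and they do not say whether each library came from a mouse of its own. An input library is RNA-seq of fragmented poly(A) RNA before the m6A pulldown. The p-values below therefore measure the spread between these libraries.

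METTL3 is the enzyme that, with its partner METTL14, writes N6-methyladenosine (m6A), the most common internal modification of mRNA. Reader proteins that bind the mark can speed the decay of an mRNA or change its translation, and 2 demethylases, FTO and ALKBH5, can remove it. Adrenergic neuroblastoma cells such as Kelly resemble sympathetic neuroblasts: they are held in that state by a set of transcription factors that includes HAND2, GATA3 and MYCN, make catecholamines and store peptides in granules. A tumour under the skin differs from a culture dish in oxygen, nutrients and neighbouring mouse cells.

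The libraries were shallow and differed in depth. The DMSO tumours held 4300547 and 7271929 fragments assigned to genes, and the STM2457 tumours 3189750 and 2144870. At the depth of the smallest library, 12962 and 13157 genes were detected in the DMSO tumours and 12247 and 11723 in the STM2457 tumours. Over 8280 genes of at least 10 CPM (a gene's fragments scaled to a common library total), the log2 levels of the DMSO tumours had a correlation of 0.951, and those of the STM2457 tumours of 0.822. STM2457 tumour 2 stood furthest from the rest, with correlations of 0.841 and 0.845 to the DMSO tumours. The biological coefficient of variation, the typical spread of a gene between tumours of a group, was 0.448, against 0.0913 between cultured Kelly libraries at 6 days.

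With this spread, no gene passed the test on its own. Of 11329 genes tested with edgeR, 0 (0%) had an adjusted p under 0.05. At an unadjusted p under 0.05, 567 genes were higher (5%) and 401 lower (3.54%) in the STM2457 tumours. DESeq2 called 106 genes higher (5.04% of the 2104 genes it adjusted) and 7 lower (0.333%). A limma voom fit with 1 weight per group called 107 higher (0.944% of 11329) and 5 lower (0.0441%), and 92 genes were called by both. With a tumour left out, edgeR called 31 genes without DMSO tumour 1, 13 without DMSO tumour 2, 1933 without STM2457 tumour 1 and 654 without STM2457 tumour 2; the remaining tumour of that group was then assumed to vary like the other group. A list of genes is therefore described below by its tumours. A gene counts as above when both STM2457 tumours exceeded both DMSO tumours, and as below in the reverse case. Of the 8280 genes of at least 10 CPM, 1911 were above (23.1%) and 1573 below (19%), and their median log2 change was 0.04. Log2 changes are STM2457 minus DMSO, from edgeR, with the standard error (SE) of the fit.

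Several immediate early genes stood higher in the STM2457 tumours. Transcription of these genes starts within minutes of a stimulus without new protein synthesis. Of 30 listed genes, 22 passed the filter on low counts and 15 reached 10 CPM. Of these 15, 10 were above and 2 below, with a median log2 change of 0.78. The filter took the mean over all 4 tumours, so FOS, EGR1 and NR4A3 reached 10 CPM only through higher STM2457 tumours, and these counts are a description only. With 10 CPM required in each group, 10 genes were left, with 7 above, 1 below and a median of 0.68, beside 22.8% above and 17.2% below of 7461 genes. FOS (chromosome 14, 75278826 to 75282230, plus strand, GRCh38), a subunit of the AP-1 transcription factor, stood at 3.39 and 4.43 CPM in the DMSO tumours and at 51.8 and 47.8 CPM in the STM2457 tumours. NR4A1 (chromosome 12, 52022832 to 52059507, plus strand), an orphan nuclear receptor, stood at 40.0 and 46.9 CPM against 193 and 166 CPM. The pairs of tumours were close together for both genes and far from the other group, with log2 changes of 3.65 ± 0.51 (SE, n = 2 tumours per group, edgeR adjusted p = 0.211) for FOS and 2.04 ± 0.24 (adjusted p = 0.0906) for NR4A1. JUN, the partner of FOS in AP-1, was at 72.8 and 51.6 CPM against 142 and 223 CPM. ARC, a neuronal activity gene, was at 14.2 and 34.8 CPM against 124 and 61.6 CPM. EGR1, a zinc finger transcription factor, was at 5.20 and 6.00 CPM against 12.04 and 36.0 CPM. The groups of these 3 genes did not overlap, but their STM2457 tumours stood further apart than those of FOS and NR4A1.

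Other members were weaker or went the other way, and those named here were chosen after their values were seen. IER2, which encodes a nuclear regulator, was at 94.9 and 98.4 CPM against 171 and 185 CPM. FOSB, a relative of FOS, had no fragment in either DMSO tumour and 9.11 and 4.44 CPM in the STM2457 tumours. MCL1, an antiapoptotic factor with a short-lived mRNA, was below, at 58.1 and 97.7 CPM against 52.7 and 23.2 CPM. DESeq2 called 3 of the 15 genes higher and the voom fit 5, among them NR4A1 (DESeq2 adjusted p = 3.66e-09) and JUN (0.000199) with both tools, and FOS (0.00203) and ARC (0.00307) with voom. Without STM2457 tumour 1 the median of the list was 0.47.

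The starts of some leading genes of this group and the next are shown to let the reader see response elements there, and each holds the motif marked. They are the 250 bases before the start of each gene in RefSeq (GRCh38.p14), written 5′ to 3′ on the gene's strand, with matches to 1 motif in capitals. FOS is shown from chr14:75278578-75278827 (plus strand) and JUN from chr1:58784048-58784297 (minus strand), with TGACG, the core of the cyclic AMP response element, in capitals. EGR1 is shown from chr5:138465229-138465478 (plus strand), with the CArG box, the site of serum response factor, in capitals. HSPA1A (chr6:31815293-31815542) and HSPA1B (chr6:31827488-31827737), both on the plus strand, are shown with GAANNTTC, the core of the heat shock element, in capitals.
FOS: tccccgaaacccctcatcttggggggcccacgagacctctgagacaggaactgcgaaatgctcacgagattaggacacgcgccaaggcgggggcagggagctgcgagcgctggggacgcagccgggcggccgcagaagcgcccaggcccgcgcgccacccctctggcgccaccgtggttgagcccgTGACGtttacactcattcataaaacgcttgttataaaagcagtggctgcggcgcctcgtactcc
JUN: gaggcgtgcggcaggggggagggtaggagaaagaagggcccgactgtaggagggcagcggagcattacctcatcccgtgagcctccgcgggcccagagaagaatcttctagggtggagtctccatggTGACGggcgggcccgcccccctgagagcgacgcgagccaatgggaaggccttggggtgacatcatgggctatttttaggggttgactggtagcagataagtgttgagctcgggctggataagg
EGR1: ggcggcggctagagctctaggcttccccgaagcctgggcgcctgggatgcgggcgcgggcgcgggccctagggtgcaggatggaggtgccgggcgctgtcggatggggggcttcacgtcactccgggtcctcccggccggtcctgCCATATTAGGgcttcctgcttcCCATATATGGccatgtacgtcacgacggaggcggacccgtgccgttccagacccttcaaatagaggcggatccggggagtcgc
HSPA1A: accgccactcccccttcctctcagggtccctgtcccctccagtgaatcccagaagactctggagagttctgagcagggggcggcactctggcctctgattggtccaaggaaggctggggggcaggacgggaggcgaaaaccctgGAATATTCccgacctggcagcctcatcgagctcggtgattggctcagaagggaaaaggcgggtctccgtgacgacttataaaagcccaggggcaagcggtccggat
HSPA1B: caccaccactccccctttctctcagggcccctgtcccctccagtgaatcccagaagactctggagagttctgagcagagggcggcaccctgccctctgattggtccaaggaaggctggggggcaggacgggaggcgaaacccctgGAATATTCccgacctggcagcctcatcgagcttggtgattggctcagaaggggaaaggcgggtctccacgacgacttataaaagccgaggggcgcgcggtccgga

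On both strands, TGACG was found in 21.2% of all 35116 such windows, the CArG box in 1.16% and GAANNTTC in 5.78%; the last reads the same on both strands. FOS and JUN each held 1 match to TGACG, 59 and 118 bases before the start. EGR1 held 2 CArG boxes, 95 and 73 bases before it. HSPA1A and HSPA1B each held 1 match to GAANNTTC, 98 and 97 bases before it. Only the named motif is in capitals: the windows also hold 2 matches to TGACG in EGR1, 1 in HSPA1A and 1 match to GAANNTTC in JUN. Of the 9 immediate early genes above with a window, 6 held TGACG, and so did 2 of the 3 that overlapped and the 1 below. The CArG box stood before 1 of these 9, which was EGR1, and before 1 of the 3 that overlapped. NR4A1, whose window is not printed, held none of the 3 motifs. TGACG also stood before 13 of 24 heat shock genes, at 4 of 8 above, 5 of 8 below and 4 of 8 that overlapped. Of the heat shock genes, GAANNTTC stood before 5 of 8 above, 4 of 8 below and 3 of 8 that overlapped. Counted per gene, with any of its windows, TGACG stood before 24.9% and GAANNTTC before 7.05% of all 27305 genes. These are matches of letters and no measurement of binding.

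Heat shock and cytosolic chaperone genes divided. These proteins fold new chains and refold damaged ones; the inducible HSP70 genes HSPA1A and HSPA1B rise sharply when cells are stressed. Of 27 genes, all of which reached 10 CPM, 9 were above and 8 below, with a median of 0.07. HSPA1A (chromosome 6, 31815543 to 31817946, plus strand) was at 154 and 159 CPM in the DMSO tumours and at 426 and 426 CPM in the STM2457 tumours, a log2 change of 1.44 ± 0.15 (edgeR adjusted p = 0.0906; DESeq2 adjusted p = 5.73e-12). HSPA1B was at 75.2 and 77.2 CPM against 163 and 220 CPM. The HSPA1A and HSPA1B genes lie side by side on chromosome 6 and are near-identical, so how fragments were divided between them is uncertain; the windows printed above were identical at 235 of 249 aligned bases (94.4%).

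The other members above were HSPB1, DNAJB1, HSPH1, HSP90AA1, CCT8, HSF1 and AHSA1, all chaperones or their helpers except HSF1, the heat shock transcription factor. HSPB1, a small heat shock protein, was at 489 and 462 CPM against 795 and 850 CPM. DNAJB1, a J-domain partner of HSP70, was at 143 and 125 CPM against 231 and 217 CPM. HSPH1, a nucleotide exchange factor, was at 40.7 and 46.3 CPM against 82.7 and 75.9 CPM. HSPA1A, HSPA1B, HSPB1 and DNAJB1 were the 4 members called by DESeq2 and by voom, all higher. Below were HSP90AB1, the constitutive HSP90, at 1466 and 1461 CPM against 1221 and 1134 CPM, and DNAJA2, a J-domain protein, at 41.1 and 33.9 CPM against 27.0 and 10.4 CPM. With fragments scaled by library totals alone, the median of this list was -0.06, while that of all genes was -0.08. HSPB1, DNAJB1, HSP90AB1 and the members given by name alone were named after their values were seen.

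**Figure D1:**
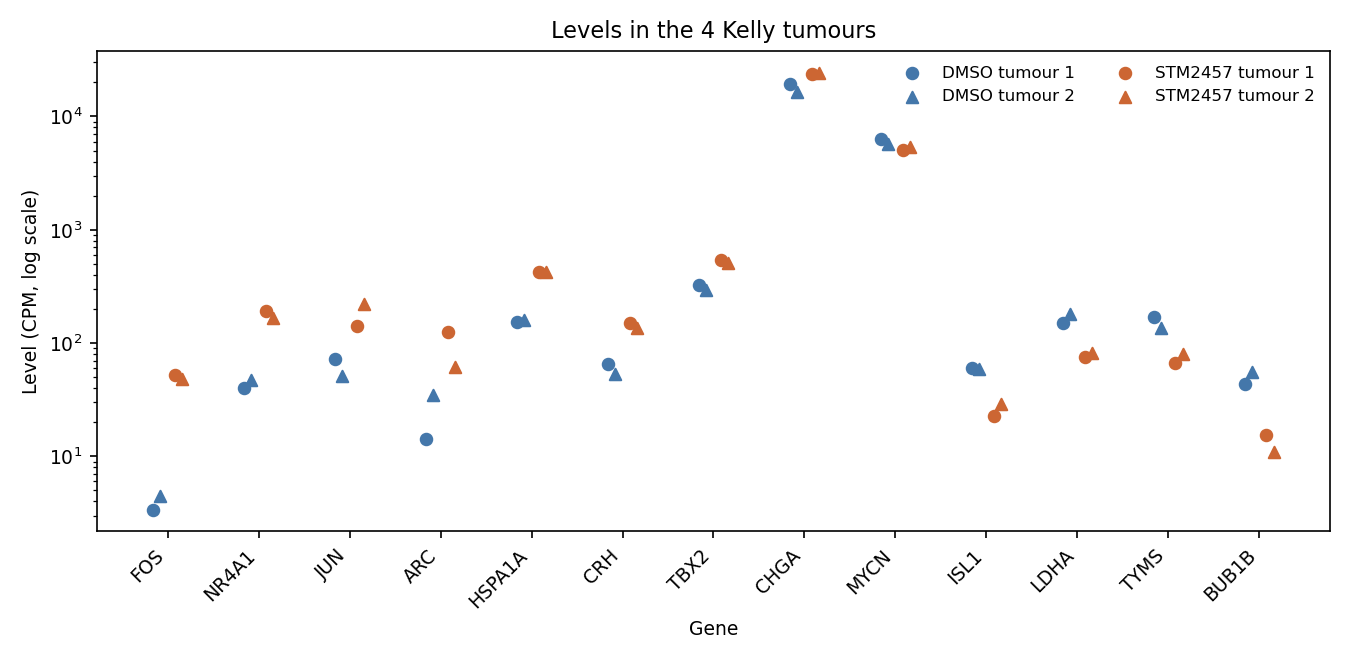
Level of 13 genes (CPM, log scale) in the 2 DMSO and 2 STM2457 tumours; each point is 1 tumour and no error bar is drawn. FOS stands at 3.39 and 4.43 CPM against 51.8 and 47.8 CPM. The 13 genes were picked with their values known and their groups do not overlap, so the lack of overlap is no result. Genes that overlap, such as METTL3, are not drawn. Of all 8280 genes of at least 10 CPM, 23.1% were above and 19% below.

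The m6A machinery itself showed no difference that stood clear of the spread. METTL3 was at 77.5 and 54.5 CPM in the DMSO tumours and at 70.0 and 38.5 CPM in the STM2457 tumours. Its partner METTL14 was at 8.36 and 9.39 CPM against 12.4 and 2.47 CPM, and WTAP, the adaptor of the complex, at 50.6 and 43.3 CPM against 18.9 and 51.8 CPM. The STM2457 tumours lay on both sides of the DMSO values, or spread more widely than they did. The log2 changes were -0.27 ± 0.37, -0.24 ± 1.01 and -0.42 ± 0.49, and that of each gene changed sign when 1 STM2457 tumour was left out. Of the 6 writer genes of at least 10 CPM, 0 were above and 0 below. Of the demethylases, FTO was at 21.7 and 22.9 CPM against 20.8 and 17.3 CPM, and ALKBH5 at 59.9 and 45.8 CPM against 65.7 and 64.1 CPM. Of 11 demethylase and reader genes, 2 were above and 2 below. STM2457 acts on the enzyme, and mRNA levels of METTL3 do not measure its activity.

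The most abundant mRNAs stood higher in the STM2457 tumours. CHGA, the granule protein chromogranin A, was at 19477 and 16527 CPM in the DMSO tumours and at 23754 and 24392 CPM in the STM2457 tumours, a log2 change of 0.42 ± 0.07. The other mRNAs among the top 5 by CPM are encoded by the mitochondrial genome and make subunits of the respiratory chain. MT-CYB was at 10172 and 8790 CPM against 13300 and 14174 CPM, and MT-ND4 at 15266 and 13106 CPM against 18120 and 19151 CPM. MT-CO3 was at 10588 and 9499 CPM against 11807 and 13034 CPM. The groups did not overlap for these 4 genes, and DESeq2 called all of them higher, with adjusted p from 5.65e-07 (MT-CYB) to 0.00973 (MT-CO3). MT-CO1 was at 18822 and 18044 CPM against 19400 and 19872 CPM, a log2 change of 0.09 ± 0.05, which is smaller than the shift between scalings given above.

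Of the 13 mitochondrial mRNAs, 9 were above and 0 below, with a median of 0.31; MT-ND1, MT-ND2, MT-ATP6 and MT-ATP8 overlapped. Of the 79 cytosolic ribosomal protein genes, 53 were above and 2 below, with a median of 0.23. RPL36, of the large subunit, was at 2865 and 2483 CPM against 3798 and 3981 CPM. GAPDH, a glycolytic enzyme named after its values were seen, was at 7974 and 7635 CPM against 10035 and 10387 CPM. DESeq2 and voom each called 18 ribosomal protein and 8 mitochondrial genes higher. Of the 71 nuclear-encoded subunits of the respiratory chain of at least 10 CPM, 13 were above and 14 below, with a median of 0.09. They were far less abundant, with a median level of 65.35 CPM. That of the ribosomal protein genes was 1377 CPM and that of the mitochondrial mRNAs 4880 CPM. Of all genes from 50 to 100 CPM, 23.5% were above and 19% below, with a median of 0.04.

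The difference between the groups moved with abundance over all genes. From 10 to 20 CPM, 15.8% of 2193 genes were above and 21.7% below. Of the 110 genes of at least 1000 CPM, 63.6% were above and 8.18% below, with a median log2 change of 0.19. The mitochondrial mRNAs are among these. Of the ribosomal protein genes 67.1% were above, and of the mitochondrial mRNAs 69.2%. The share of fragments on the 10 most abundant genes was 11.6% and 10.8% in the DMSO tumours and 12.8% and 13.1% in the STM2457 tumours, which were also the shallower libraries. A cyclic loess normalization, which removes such a trend from each library, lowered the median of the ribosomal protein genes to 0.04 and that of the mitochondrial mRNAs to 0.04, with all genes at -0.02. The change also moved with the GC content of the transcript: in the top GC decile, 37.1% of genes were above and 8.72% below. After a GC correction the medians were 0.27 for ribosomal protein genes and 0.67 for immediate early genes. The part of depth and of the trend with abundance in the result was not tested beyond these values.

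**Figure D2:**
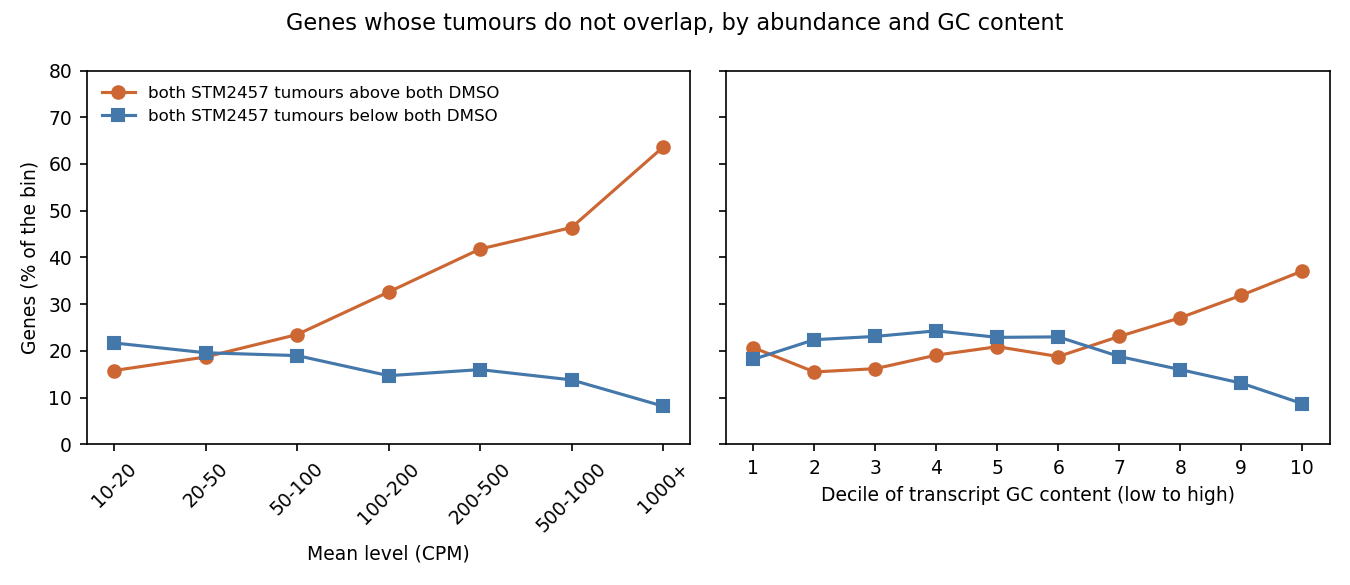
Share of genes whose tumours do not overlap (% of the genes in a bin, vertical axis), by mean CPM (left) and by deciles of transcript GC content (right), for genes of at least 10 CPM. The share above rises from 15.8% at 10 to 20 CPM to 63.6% at 1000 CPM or more and is 37.1% in the top GC decile.

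Genes of DNA replication stood lower on balance. Of 42 listed genes, 39 reached 10 CPM, with 3 above (7.69%), 15 below (38.5%) and a median of -0.16. Of all 8280 genes, 23.1% were above and 19% below. The mean log2 CPM of the list was 6.11 and 6.14 in the DMSO tumours against 5.93 and 5.94 in the STM2457 tumours. That of all 8280 genes was also lower, at 5.4645 and 5.4653 against 5.4373 and 5.4017. Groups that stand apart in this mean are therefore not particular to the list. TYMS, which makes the thymidylate needed for DNA, was at 171 and 135 CPM against 66.1 and 79.9 CPM. CDC6, a loader of the replicative helicase, was at 31.6 and 41.1 CPM against 16.9 and 15.3 CPM. MCM2, a subunit of that helicase named after its values were seen, was at 344 and 375 CPM against 270 and 246 CPM. The groups were apart for these 3 genes, and of the list DESeq2 called only TYMS (adjusted p = 0.0148), while voom called none (0.0767 for TYMS). TYMS shares exons with ENOSF1, and the counts were not separated by strand.

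Mitosis and kinetochore genes gave a similar median, -0.16, that was less steady. Of 57 genes, 49 reached 10 CPM, with 6 above and 14 below. BUB1B, a checkpoint kinase, was at 43.2 and 56.1 CPM against 15.3 and 10.8 CPM, and shares exons with PAK6. ANLN, a cytokinesis protein, was at 22.4 and 19.4 CPM against 6.84 and 9.37 CPM, and CENPK, of the inner kinetochore, at 18.8 and 14.1 CPM against 8.14 and 4.44 CPM. These 3 had the largest log2 changes of the list and all lay below. ANLN and CENPK reached 10 CPM only through higher DMSO tumours, so their place below is a description only. Without STM2457 tumour 1 the median of the list was -0.03. With 10 CPM required in each group, 5 of 43 genes were above (11.6%) and 9 below (20.9%), with a median of -0.10. Of all 7461 genes that met this, 22.8% were above and 17.2% below, so the share below was near that of all genes. Neither DESeq2 nor voom called a member.

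The replication-dependent histone genes went the other way. Their mRNAs normally end in a stem-loop and not in a poly(A) tail, so a poly(A) library holds few of them. Of 24 listed genes, 10 passed the filter and 6 reached 10 CPM. Of these 6, 4 were above and 0 below, with a median of 1.28, beside 23.1% above and 19% below of all 8280 genes. Without STM2457 tumour 2 the median was 0.75, and with members of at least 2 CPM it was 0.92. H1-5 reached 10 CPM only through higher STM2457 tumours. Of the 5 genes with 10 CPM in each group, 3 were above and 0 below, beside 22.8% above and 17.2% below of 7461 genes. The linker histone H1-4 was at 9.94 and 10.2 CPM against 48.8 and 21.7 CPM, and H1-2 at 31.6 and 31.4 CPM against 57.6 and 88.3 CPM. H1-5 was at 0.226 and 3.65 CPM against 19.9 and 23.2 CPM, and the core histone H2BC5 at 15.4 and 21.8 CPM against 29.0 and 66.6 CPM. The groups did not overlap for these 4, but their levels were low, and edgeR, DESeq2 and voom called none of the 6.

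Glycolytic and hypoxia genes, which cells raise when oxygen is short, were mostly below or overlapping. Of 40 listed genes, 31 reached 10 CPM, with 1 above (3.23%) and 11 below (35.5%) and a median of -0.13. Of all 8280 genes, 23.1% were above and 19% below. The mean log2 CPM of the list overlapped between the groups, at 6.33 and 6.37 in the DMSO tumours against 5.88 and 6.34. LDHA (chromosome 11, 18394560 to 18408425, plus strand), which turns pyruvate into lactate, was at 151 and 182 CPM in the DMSO tumours and at 75.8 and 80.9 CPM in the STM2457 tumours, a log2 change of -1.09 ± 0.22 (edgeR adjusted p = 0.408; DESeq2 adjusted p = 0.00595). EGLN1, an oxygen sensor that marks HIF for destruction, was at 19.9 and 25.7 CPM against 8.46 and 6.41 CPM. It reached 10 CPM only through higher DMSO tumours. With 10 CPM required in each group, 1 of 30 genes was above and 10 below, with a median of -0.11. PGAM1, phosphoglycerate mutase, was at 115 and 133 CPM against 65.7 and 77.9 CPM, and PGK1, phosphoglycerate kinase, at 169 and 164 CPM against 99.6 and 115 CPM; PGK1 was named after its values were seen. The 1 gene above was GAPDH, of the same pathway. Leaving out 1 tumour at a time gave medians from -0.27 to -0.06.

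The adrenergic transcription factors that define the cell identity did not move together. All 20 listed genes reached 10 CPM, with 6 above, 4 below and a median of -0.03. TBX2, a T-box repressor, was at 326 and 292 CPM against 542 and 507 CPM, a log2 change of 0.77 ± 0.14. GATA3 was at 155 and 145 CPM against 258 and 190 CPM, and KLF7, a neuronal Krüppel-like factor, at 49.3 and 36.0 CPM against 49.5 and 93.2 CPM. DESeq2 called TBX2 higher (adjusted p = 0.000224) and did not call GATA3 (0.148); the groups of KLF7 were nearly touching. ISL1, a LIM homeodomain factor of sympathetic neurons, was at 59.6 and 59.1 CPM against 22.8 and 29.1 CPM, a log2 change of -1.20 ± 0.36. LMO1, a LIM-only cofactor, was at 83.4 and 92.8 CPM against 76.5 and 35.5 CPM. MYCN (chromosome 2, 15940550 to 15947007, plus strand) was at 6314 and 5696 CPM against 5025 and 5402 CPM, a log2 change of -0.20 ± 0.08, and HAND2 at 1792 and 1738 CPM against 1554 and 1523 CPM. The last 4 genes were below, and the changes of MYCN and HAND2 were small.

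Genes of catecholamine synthesis stayed close to the DMSO levels. Of 15 genes, 11 reached 10 CPM, with 3 above, 2 below and a median of 0.06. TH, the rate-limiting enzyme of dopamine synthesis, was at 1618 and 1620 CPM against 1911 and 1815 CPM, and DBH, which makes noradrenaline, at 2909 and 2971 CPM against 3023 and 3096 CPM. The log2 changes were 0.20 for TH and 0.06 for DBH, and after the GC correction they were -0.00333 and -0.064. DDC, the decarboxylase between these steps, was below, at 552 and 664 CPM against 500 and 405 CPM. Of 18 granin and granule genes, 6 were above and 4 below, with a median of 0.03. PCSK1N, an inhibitor of a prohormone convertase, was at 40.2 and 44.2 CPM against 98.6 and 92.2 CPM, while SYT11, a synaptotagmin, was at 63.7 and 67.7 CPM against 22.5 and 40.9 CPM. CHGB, the relative of CHGA, was at 690 and 641 CPM against 570 and 592 CPM, opposite in direction to CHGA.

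Of 19 neuropeptide genes, 5 reached 10 CPM; 2 were above and 2 below. CRH, corticotropin-releasing hormone, was at 64.8 and 53.2 CPM against 150 and 136 CPM, a log2 change of 1.28 ± 0.24 (edgeR adjusted p = 0.325; DESeq2 adjusted p = 0.00159). GAL, galanin, was at 160 and 130 CPM against 230 and 188 CPM. The other named members were below: SST, somatostatin, at 271 and 269 CPM against 206 and 229 CPM, and CARTPT, the CART peptide, at 418 and 411 CPM against 392 and 308 CPM. Their median of -0.08 changed sign with a tumour left out, so the list has no direction here.

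Of 26 neurofilament and neurite genes of at least 10 CPM, 6 were above and 6 below. MAP1B, a microtubule protein of growing axons, was at 436 and 356 CPM against 546 and 773 CPM (DESeq2 adjusted p = 0.0041), and STMN4, a stathmin, at 34.6 and 28.4 CPM against 48.2 and 48.3 CPM. DPYSL3, a growth cone protein, was below, at 101 and 93.6 CPM against 48.8 and 57.2 CPM. Among 15 receptor genes of at least 10 CPM, 5 were above and 4 below. RET, the receptor of the GDNF family, was at 58.1 and 92.1 CPM against 35.5 and 36.5 CPM, and FGFR2 at 24.4 and 40.9 CPM against 16.9 and 6.41 CPM. PDGFRB was above, at 62.6 and 74.2 CPM against 144 and 83.3 CPM.

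Of 38 splicing factors of the SR and hnRNP families, 3 were above (7.89%) and 10 below (26.3%). Of all 8280 genes, 23.1% were above and 19% below. The median of the list was -0.09, and it was -0.02 after the GC correction. DESeq2 and voom each called 1 member, higher, and none lower. Of the members below, HNRNPF was at 118 and 161 CPM against 69.0 and 90.7 CPM, and HNRNPK at 155 and 189 CPM against 107 and 112 CPM. Both bind pre-mRNA and were clear of overlap. Proteasome subunits had no common direction, with 6 above and 7 below of 30. PSMC3, an ATPase of the cap, was at 274 and 275 CPM against 416 and 405 CPM, and PSMA6, of the core, at 18.8 and 22.7 CPM against 5.21 and 9.37 CPM. PSMA6 reached 10 CPM only through higher DMSO tumours, so its place below is a description only. With 10 CPM required in each group, 6 of 28 proteasome genes were above and 5 below. Of 25 genes of the ATF4-CHOP stress response, 5 were above and 4 below, and of 20 aminoacyl-tRNA synthetases 4 were above and 1 below.

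**Figure D3:**
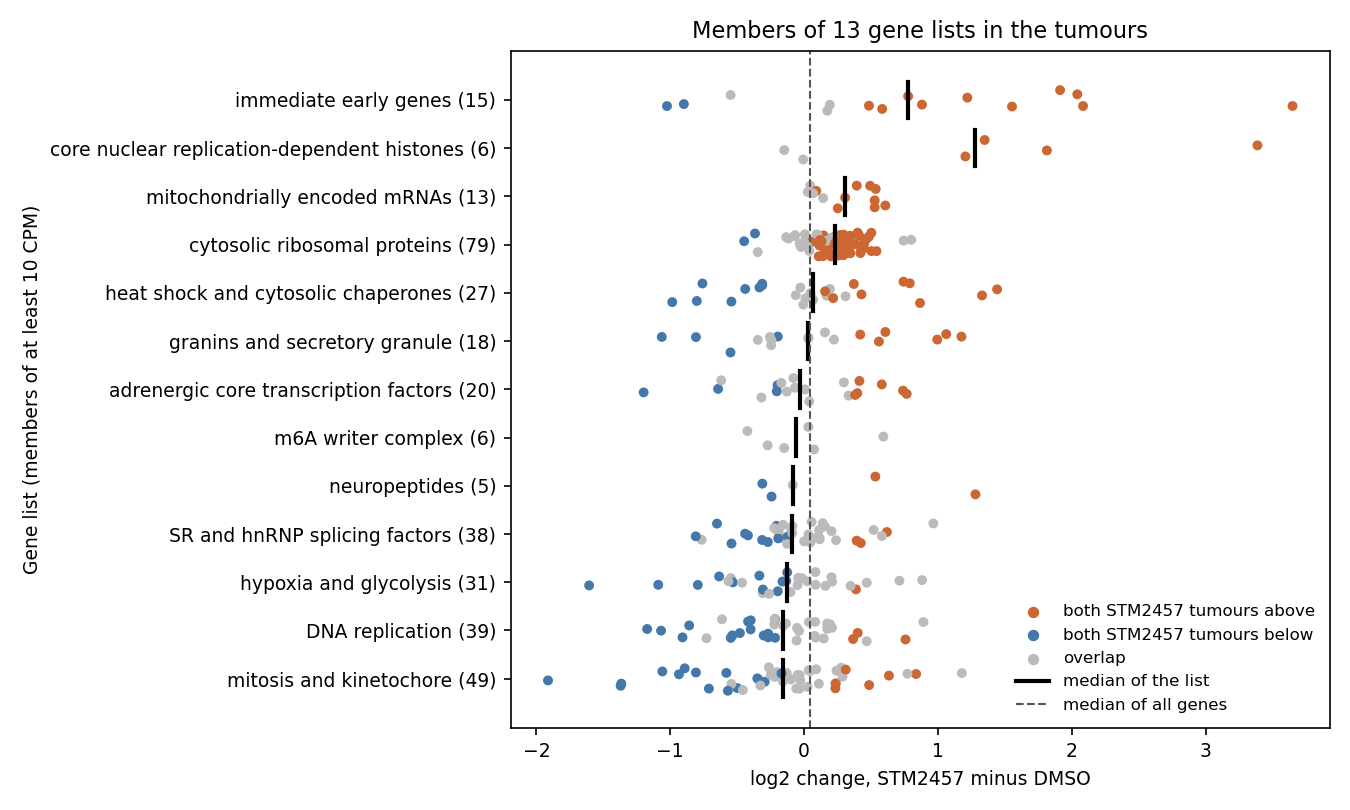
Log2 change (STM2457 minus DMSO, horizontal axis) of the members of at least 10 CPM in 13 gene lists; each point is a gene, coloured by whether its tumours overlap, black bars are list medians and the dashed line is the median of all genes, 0.04. Immediate early genes (median 0.78) lie to the right, and DNA replication and mitosis genes (medians of -0.16) to the left.

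Among abundant genes, those of at least 50 CPM, 1056 of 3362 were above (31.4%) and 562 below (16.7%). The 10 with the widest gap between the groups on the higher side were NR4A1, HSPA1A, HSPA1B, CRH, PCSK1N, ERCC2, JUN, D2HGDH, SH3KBP1 and FUNDC2. ERCC2, a helicase of TFIIH, was at 21.7 and 38.7 CPM against 79.7 and 81.9 CPM, and SH3KBP1, an endocytic adaptor, at 37.3 and 45.2 CPM against 98.6 and 87.3 CPM. FUNDC2, a mitochondrial outer membrane protein, was at 22.4 and 32.9 CPM against 63.5 and 84.3 CPM. D2HGDH, which oxidises 2-hydroxyglutarate, was at 37.1 and 34.8 CPM against 71.9 and 113 CPM. These 4 genes belong to none of the lists used here. ERCC2 shares exons with KLC3 and FUNDC2 with F8.

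On the lower side the 10 were EHD1, ATP5MC3, EPB41, WBP11, RSRP1, LDHA, MTX1, SLC4A8, DYNC1LI2 and NBR1. EHD1, of endocytic recycling, was at 84.7 and 68.2 CPM against 33.5 and 33.5 CPM. WBP11, a splicing factor, was at 142 and 132 CPM against 70.3 and 46.9 CPM (DESeq2 adjusted p = 0.00902). ATP5MC3, a subunit of the ATP synthase ring, was at 97.4 and 88.9 CPM against 44.9 and 37.97 CPM. The log2 changes of all 10 lay between -1.22 and -0.92. The smallest unadjusted p on the lower side, besides LDHA, belonged to RNF185 and SMG6. RNF185, a ubiquitin ligase of the endoplasmic reticulum, was at 37.3 and 36.5 CPM against 5.21 and 5.92 CPM. SMG6, the endonuclease of nonsense-mediated decay, was at 18.8 and 22.9 CPM against 0.651 and 0 CPM, that is 2 and 0 fragments. SMG6 shares exons with HIC1. Both RNF185 and SMG6 reached 10 CPM only through higher DMSO tumours.

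All 14 neuroblastoma markers were detected, with summed levels from 30490 to 37890 CPM, of which CHGA made up the largest share. Of the 13 at 10 CPM or more, 4 were above and 7 below, with a median of -0.20. Of other tissues, some defining markers had no fragment and others were present. In the fibroblast list 5 of 19 genes, COL1A2, DCN, LUM, POSTN and FAP, had no fragment in any tumour, but 11 reached 10 CPM, among them COL1A1 at 26.9 to 57.0 CPM, THY1 at 47.7 to 91.2 CPM and FBLN1 at 132 to 158 CPM. CD74 of leukocytes was at 21.2 to 54.5 CPM, TNNT1 of muscle at 41.3 to 54.9 CPM and VWF of endothelium at 9.84 to 14.9 CPM. The leukocyte list summed to 21.65 to 62.3 CPM in the tumours and to 31.4 to 34.9 CPM in cultured Kelly cells with DMSO. The muscle list summed to 65.9 to 117 CPM in the tumours and to 104 to 111 CPM in that culture. No fragment was seen of HBA1 and HBA2 of red cells, TEK, EMCN and PLVAP of endothelium, or 12 of 21 leukocyte markers. The fibroblast list summed to 1417 and 1309 CPM in the DMSO tumours and to 2697 and 1594 CPM in the STM2457 tumours, and to 1287 to 1295 CPM in cultured Kelly cells with DMSO; the part of these genes in the results was not tested. The highest members were those of collagen VI, with COL6A3 at 435 and 351 CPM against 1258 and 416 CPM and COL6A2 at 170 and 164 CPM against 365 and 290 CPM. MMP2 of the same list was below, at 61.5 and 54.5 CPM against 24.4 and 10.8 CPM. In cultured Kelly cells with DMSO, COL6A3 was at 66.2 to 72.15 CPM, COL6A2 at 180.8 to 191.4 CPM and MMP2 at 91.7 to 109.1 CPM. The endothelial and pericyte list summed to 1288 to 1403 CPM in the tumours and 1192 to 1218 CPM in culture, nearly all from RGS5. Mouse RNA that aligned to human genes cannot be told apart in these counts. In bulk tumours, fewer cells of a type and less RNA per cell cannot be told apart either.

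The responses in tumours were then set against those of Kelly cells kept in culture with 8 µM STM2457 or DMSO for 6 days, 3 libraries a group. Dose, time, route and surroundings all differ, so none of them can be told apart as a source of a difference. The interaction of treatment and experiment in edgeR tested the difference of the log2 changes itself. Of 13200 genes, 589 responded higher in tumours than in culture (4.46%) and 728 lower (5.52%). Of the 8280 genes of at least 10 CPM in tumours, 530 were higher (6.4%) and 411 lower (4.96%). This fit assumes the same spread in both experiments, while tumours spread more. A limma voom fit with 1 weight per experiment (0.433 for tumours, 1.75 for culture) called 105 genes in all, and of the 8280 it called 94 higher (1.14%) and 8 lower (0.0966%). With STM2457 tumour 1 left out edgeR called 4355 genes, and without STM2457 tumour 2 it called 3307.

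Ribosomal protein genes gave the largest group. In culture, 61 of the 79 fell and 2 rose (of all genes of at least 10 CPM in tumours with a culture test, 18.1% fell and 15% rose), with a median of -0.39, whereas in tumours the median was 0.23. The difference was called higher for 51 of 79 genes and lower for 0 by edgeR, and for 26 and 0 by voom. For RPL36 it was 1.04 (edgeR adjusted p = 0.00316). The part of the abundance trend of the tumours in these values was not tested.

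By its median, the stress response that fell in culture fell far less in tumours. ATF4 and CHOP drive genes of amino acid synthesis and transport. In tumours the mean log2 CPM of these genes was somewhat lower with STM2457, at 5.74 and 5.62 against 5.87 and 5.82 with DMSO. That of all 8280 genes was also lower with STM2457, at 5.4373 and 5.4017 against 5.4645 and 5.4653. In culture 22 of 25 genes of the ATF4-CHOP list fell, with a median of -0.90, and in tumours the median was -0.02. The difference was called higher for 11 and lower for 0 by edgeR, and for 5 and 0 by voom. ASNS, asparagine synthetase, fell by 2.06 on the log2 scale in culture and was at 18.1 and 16.7 CPM against 37.1 and 26.1 CPM in tumours, a difference of 2.95 (voom adjusted p = 0.00279). DDIT3, which encodes CHOP, was at 11.3 and 19.3 CPM against 34.2 and 30.1 CPM in tumours, a difference of 2.67 (voom adjusted p = 0.01745); it shares exons with MARS1. Not all members differed: SESN2 fell by 1.96 in culture and was at 21.2 and 13.8 CPM against 5.53 and 4.44 CPM in tumours. SESN2 reached 10 CPM only through higher DMSO tumours. For the aminoacyl-tRNA synthetases, which charge tRNAs, the difference was called higher for 9 of 20 by edgeR and 2 by voom. YARS1 was at 113 and 97.7 CPM against 145 and 163 CPM in tumours and fell by 0.92 in culture. Nuclear respiratory chain genes were called higher for 17 of 71 by edgeR and 2 by voom, and proteasome genes for 7 of 30 by edgeR (with 1 lower) and 1 by voom.

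Neuropeptides that fell in culture did not fall as far in tumours. CRH fell by 1.79 in culture, a difference of 3.06 from the tumours, CARTPT fell by 2.07 and SST by 1.54, with differences of 1.83 and 1.21. All 3 were called by both edgeR and voom. TH fell by 1.01 in culture, with a difference of 1.19 that both tools called. For DBH the difference was 0.42, called by edgeR (adjusted p = 0.0154) and not by voom (0.0759). The difference for immediate early genes was called higher for 6 of 15 by edgeR and 2 by voom; it was 2.36 for NR4A1 (voom adjusted p = 0.000181) and 3.49 for FOS (edgeR 0.0173, voom 0.0964). HSPA1A differed by 1.39, called by both tools.

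The reverse difference, lower in tumours than in culture, was seen in RET and in adrenergic factors. RET rose by 1.19 in culture and was below in tumours, a difference of -2.28 (voom adjusted p = 0.0157). Of 20 adrenergic factors, 4 were called lower by edgeR and 0 by voom. ISL1 rose by 0.37 in culture, a difference of -1.60, and MYCN rose by 0.24, a difference of -0.46. With voom the adjusted p was 0.167 for ISL1 and 0.206 for MYCN, so these 2 rest on the assumption of equal spread.

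**Figure D4:**
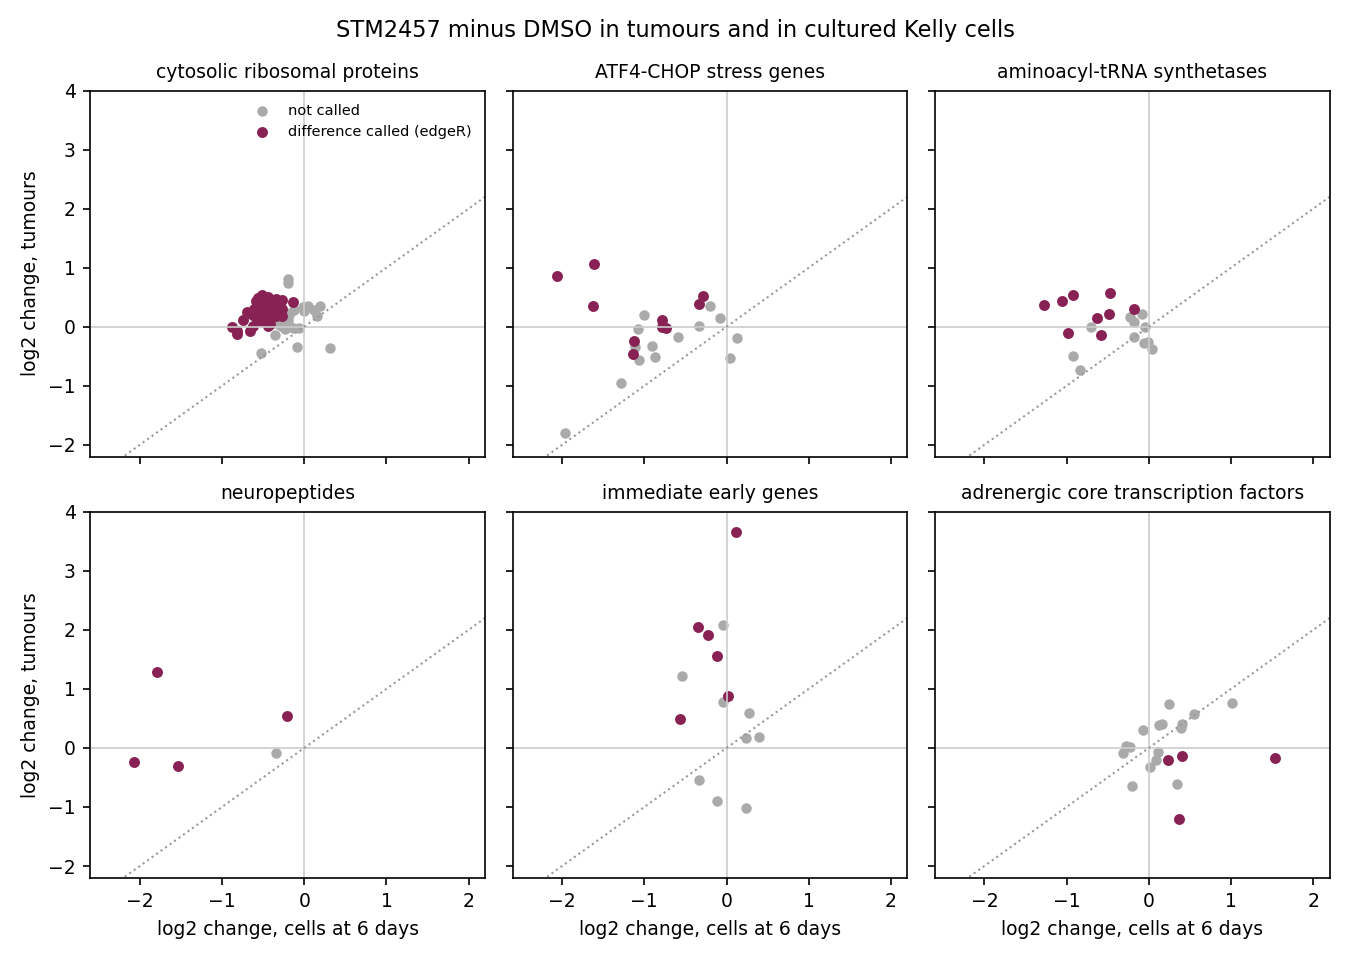
Log2 change (STM2457 minus DMSO) in cultured Kelly cells at 6 days (horizontal axis) and in tumours (vertical axis) for the members of 6 gene lists of at least 10 CPM; each point is a gene, purple points have a difference called by edgeR and the dotted line marks equal changes. Ribosomal protein genes lie left of 0 in culture (median -0.39) and above 0 in tumours (median 0.23).

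Pulldown libraries of Kelly tumours, 2 a group, spread even more, with a biological coefficient of variation of 1.22. Of 10433 genes in the m6A pulldown libraries, edgeR called 0 (0%), 304 had an unadjusted p under 0.05 (2.91%), DESeq2 called 62, and without STM2457 tumour 2 edgeR called 107.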

How the data were processed

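RNA-seq input libraries of 4 Kelly tumours were analysed. The deposited counts are whole fragments per gene, made by the authors with featureCounts 1.5.3 without strand on protein-coding genes of GENCODE 33 (GRCh38), per the file headers; the submitters' processing notes also name FastQC 0.11.5, Trimmomatic 0.36 and HISAT2 2.1.0. Overlapping genes and host reads can therefore affect a count. Counts were tested with edgeR 4.0.16 (quasi-likelihood, TMM, at least 10 counts by filterByExpr, Benjamini-Hochberg adjustment, threshold 0.05) in R 4.3.3, with DESeq2 1.42.0 and limma 3.58.1 as alternatives. The edgeR fits of the tumours and of the difference from culture were tried on simulated counts. The simulation of the difference gave both experiments the spread of cultured cells, so it did not check unequal spread. The other tools, the list summaries and the motif counts were not tried on simulated data. The difference between tumours and culture is the interaction in 1 edgeR fit of both experiments. For a single value, 2 against 2 tumours allow 6 arrangements, so an exact permutation test cannot go below a two-sided p of 0.333. GC content came from GENCODE 44 for 95.53% of 19923 genes.

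The gene lists, the tumours and the tests were chosen with earlier results of these data known. Genes are named by rule: METTL3, METTL14, WTAP, FTO, ALKBH5 and MYCN; the 10 widest gaps between groups in each direction at 50 CPM or more; up to 4 members of each list with the largest changes (and whole lists under 15 members); the 3 smallest p in each direction; and the 5 most abundant genes. Other genes were named after their values were seen: IER2, FOSB, MCL1, HSPB1, DNAJB1, HSP90AB1, GAPDH, MCM2, PGK1, TH, DBH, CHGB, HAND2, GATA3, RET, YARS1, ASNS, DDIT3 and any further list member outside the rule. Left out libraries, another scaling, low-count filters, a replicate block and corrections for GC and abundance were tried. Some genes that the rule names are not reported here.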

Additional observations from a re-analysis of the deposited data

Results flagged for a closer look

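The response to STM2457 in tumours differed from that of cultured Kelly cells at 6 days by the interaction test of edgeR for 589 genes in the higher and 728 in the lower direction. Dose, time and surroundings cannot be told apart between the experiments, and the spread was larger in tumours.

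The differences of the log2 responses, tumours minus culture, were 2.36 for NR4A1, 3.49 for FOS and 1.39 for HSPA1A. Among neuropeptides and catecholamine enzymes they were 3.06 for CRH, 1.83 for CARTPT, 1.21 for SST, 1.19 for TH and 0.42 for DBH. Among genes of translation and the stress response they were 1.04 for RPL36, 1.46 for YARS1, 2.95 for ASNS and 2.67 for DDIT3. In the lower direction they were -0.46 for MYCN, -1.60 for ISL1 and -2.28 for RET. With limma voom and 1 weight per experiment, FOS, DBH, MYCN and ISL1 no longer passed the threshold, and the other 11 did.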

How the results depend on the processing

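The number of tumour genes called was 0 with RLE size factors or a GC correction. It was 100 without a low-count filter, 2551 with all 22 inputs in 1 fit, 113 with DESeq2, 112 with voom and 1 weight per group, 1 in libraries thinned to the smallest total, and 13 to 1933 with a tumour left out. A correlation of -0.000584 between the deviations of same-numbered tumours cannot settle whether the numbers pair them, and the labels do not say. With the replicate block the number of tumour genes called was 65. For the difference from culture it was 352 with the replicate block, 2517 with DESeq2, 105 with voom and 1311 to 4355 with a tumour left out. For the pulldown it was 62 with DESeq2 and 0 to 107 with a tumour left out.

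With total counts alone, the median of all genes moved from 0.04 to -0.08, and the list medians were 0.65 for immediate early, -0.057 for heat shock, 0.10 for ribosomal protein, 0.18 for mitochondrial, -0.28 for replication and -0.29 for mitosis genes. The GC correction gave 0.67 for immediate early and 0.27 for ribosomal protein genes, and -0.00333 for TH and -0.064 for DBH. Cyclic loess gave 0.0365 for ribosomal protein, 0.0448 for mitochondrial and -0.28 for replication genes. The replicate block gave 0.21 for ribosomal protein and -0.22 for replication genes. Thinning gave 0.20 for ribosomal protein, -0.17 for replication, 0.0224 for ATF4-CHOP and 0.0343 for G1 cyclin genes. At 50 CPM or more the medians were 0.68 for immediate early, 0.21 for ribosomal protein, -0.22 for replication, -0.0418 for mitosis, 0.0647 for proteasome and 0.17 for G1 cyclin genes, at 2 CPM or more -0.21 for replication genes, and at 10 CPM or more in each group 0.68 for immediate early genes.

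With a tumour left out, medians ranged from 0.47 to 0.82 for immediate early, 0.18 to 0.24 for ribosomal protein, -0.20 to -0.15 for replication and -0.20 to -0.0328 for mitosis genes. Some ranges spanned 0: -0.24 to 0.30 for neuropeptides, -0.11 to 0.0379 for ATF4-CHOP genes, -0.11 to 0.0155 for G1 cyclin genes and -0.11 to 0.82 for BMP, SMAD and ID genes. The neuropeptide median was also above 0 without STM2457 tumour 1 (0.10). Log2 changes ranged from -0.78 to 0.0872 for METTL3 and -1.84 to 0.47 for METTL14, both positive without STM2457 tumour 2, and from -1.31 to 0.14 for WTAP, positive without STM2457 tumour 1. The cause was not tested. The GC correction, cyclic loess, voom and the filter in each group were chosen after seeing the data. Low depth limits genes under 10 CPM most.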

Other observations

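Of 28 listed genes of BMP signalling, SMADs and the ID family, 12 reached 10 CPM, with a median log2 change of 0.44. Of these, 3 were above (25%) and 1 below (8.33%), beside 23.1% above and 19% below of all 8280 genes. That median rested on STM2457 tumour 2: without it, it was -0.11, and without STM2457 tumour 1 it was 0.82. The ID proteins are inhibitors of basic helix-loop-helix factors and common targets of BMP signals. ID1 was at 17.2 and 18.9 CPM in the DMSO tumours against 40.0 and 50.8 CPM in the STM2457 tumours, and ID3 at 57.6 and 59.5 CPM against 113 and 102 CPM. ID2 was close to the DMSO tumours, at 53.5 and 50.7 CPM against 66.1 and 55.7 CPM. All 3 stood apart between groups, ID2 by little, and DESeq2 and voom called no member. They are the 3 members above, and that share is close to the share of all genes.

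The methyl donor S-adenosylmethionine (SAM) is made and recycled by another list of enzymes. Of 15 such genes of at least 10 CPM, 4 were above and 1 below, with a median of -0.04. AHCY, which removes the by-product of methylation, was at 228 and 218 CPM against 338 and 350 CPM, and MTR, methionine synthase, at 34.1 and 29.5 CPM against 14.97 and 13.8 CPM. Of 23 genes of G1 cyclins, CDKs and p53 targets, 2 were above (8.7%) and 4 below (17.4%). Of all 8280 genes, 23.1% were above and 19% below, so the share below was near that of all genes. E2F2, an E2F transcription factor, was at 47.4 and 38.7 CPM against 23.1 and 11.8 CPM, and CDKN2C, a CDK inhibitor, at 61.7 and 34.8 CPM against 32.9 and 12.8 CPM.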
